A study of Anguilla anguilla and Anguilla rostrata with 84 samples.

Results

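The cadmium dose series covered 3 levels of waterborne cadmium in laboratory European eels, Anguilla anguilla, namely a control with no cadmium exposure, cadmium at 0.4 µg/L in the water and cadmium at 4 µg/L in the water. Fish were taken by their treatment label, and all 992 contigs of the array were used. The series held 15 of the 84 fish of the study, and 13 were used here: 4 control fish, 5 fish at 0.4 µg/L and 4 fish at 4 µg/L. Control replicate 5 and replicate 1 at 4 µg/L were left out, because the raw columns under their names were identical, over all 2976 spots, to those of high salinity replicate 4 and of replicate 4 at 0.4 µg/L. Replicate 4 at 0.4 µg/L therefore carried an array that was also deposited under the other cadmium level. Its processed values could be recomputed from that array, with a median absolute difference of 4.9e-08 on the log2 scale, whereas the processed values of the omitted fish at 4 µg/L differed from it by a median of 1.2.

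The study measured liver RNA of laboratory and wild eels on 2-colour arrays. Each array took the Cy3-labelled RNA of 1 fish beside a Cy5-labelled pool of liver RNA from 30 wild eels of the Certes site in France. The remaining laboratory fish had received a restricted diet, high salinity, polychlorinated biphenyls at 2 levels, methylmercury, organochlorine pesticides or low temperature. The exposure time, the age and sex of the fish, and the cadmium content of the livers are not given in the labels. Fish are separate animals by the design text. Pool and fish differ in origin, and each array was normalized by itself. A ratio of 0 is therefore the usual ratio to the pool among contigs of like brightness on that array. It is not the level of an untreated laboratory eel.

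Cadmium is a non-essential metal that fish take up from water mainly through the gills and that accumulates in liver and kidney. In the liver it is bound by metallothioneins, small cysteine-rich proteins whose genes are induced by cadmium and zinc, and it can displace zinc from proteins and deplete glutathione. Eels are long-lived, fatty bottom-dwelling fish in which metals build up before the spawning migration. The array's contigs, which are assembled transcript sequences, carried numbers only. No gene names or sequences were given with the numbers, so none of the 992 contigs could be matched to a gene. Metallothionein and the other classical responders could therefore not be looked up, and liver identity could not be checked against marker genes. Each contig below is given by its number with no function.

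Every value below is a log2 ratio of fish over pool, so that a difference of 1 between levels means that one level had 2 times the ratio of the other. Differences were tested with limma on 47 laboratory fish in 10 groups, which share an estimate of the spread, and a contig was called when its adjusted p, by the Benjamini-Hochberg method over all contigs, was under 0.05. The bulk signal cannot tell a change in the number of cells of a type from a change in RNA per cell.

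The arrays of the control fish were dimmer than those of the cadmium fish. The median background-subtracted fish signal ran from 38.4 to 77.5 intensity units on the control arrays, from 176.4 to 303.8 at 0.4 µg/L and from 114.4 to 304.1 at 4 µg/L. Control arrays thus overlapped neither cadmium level, while the cadmium levels overlapped each other. The median pool signal, which comes from the same RNA on every array, ran from 41.8 to 116.1 on control arrays, from 89.8 to 186.8 at 0.4 µg/L and from 176.5 to 223.2 at 4 µg/L. Fish and pool signals were both above background for 599 to 842 contigs on the control arrays, 775 to 911 at 0.4 µg/L and 751 to 902 at 4 µg/L, and 732 contigs, or 73.8%, met this on at least 10 of the 13 arrays. The fish signal was above background on none of the control arrays for 11% of contigs, on none at 0.4 µg/L for 1.92% and on none at 4 µg/L for 5.54%. Signal strength therefore moved with each comparison against control, and the pool signal also moved with that of 4 against 0.4 µg/L. The part of signal strength in those results was not tested beyond a fit with pool brightness as a covariate, whose counts are given with the alternatives.

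**Figure D1:**
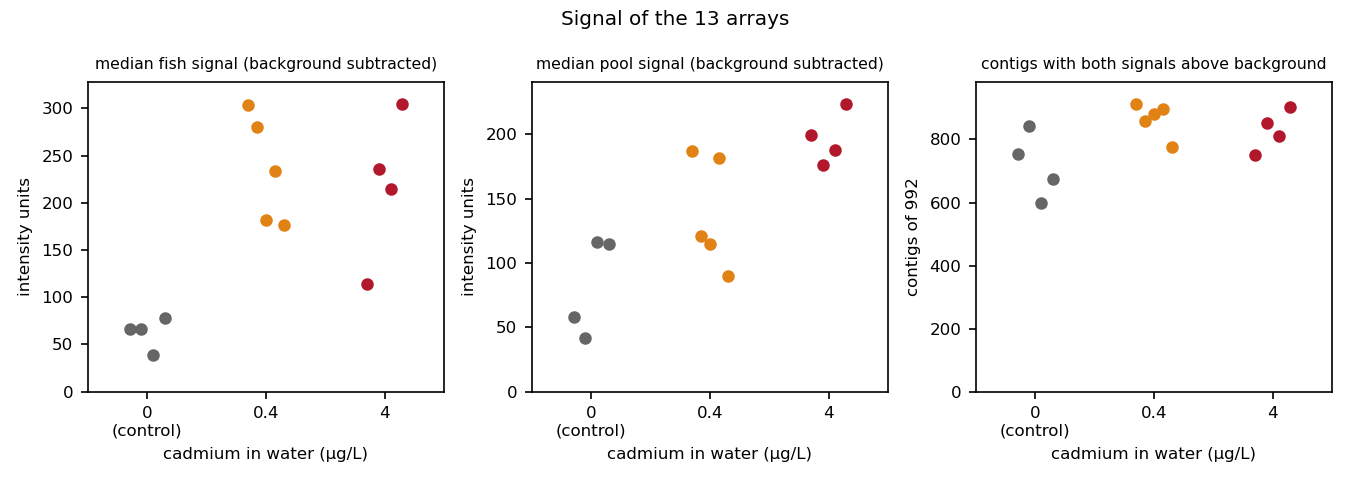
Median fish signal, median pool signal (both in background-subtracted intensity units) and number of contigs with both signals above background, for 13 arrays by cadmium in the water; each point is 1 fish. The control arrays lie between 38.4 and 77.5 for the fish signal, below every cadmium array, while the contig counts overlap between levels.

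Over 992 contigs, the correlation between 2 fish had a median of 0.552 within the control (6 pairs), 0.499 within 0.4 µg/L (10 pairs) and 0.659 within 4 µg/L (6 pairs). Between fish of different levels the median was 0.643 for 4 against 0.4 µg/L (20 pairs), 0.581 for 4 µg/L against control (16 pairs) and 0.528 for 0.4 µg/L against control (20 pairs). Single arrays stood apart within their level. Control replicate 4 correlated at 0.475 to 0.487 with the other control fish, which correlated at 0.618 to 0.694 among themselves, and its ratios had the widest spread over contigs of the 13 arrays, an SD of 0.96. At 0.4 µg/L, replicates 3 and 5 correlated at 0.408 to 0.529 with each other and with the rest, against 0.724 to 0.780 among the other 3 fish. Counts without each of these fish are within the ranges given with the alternatives. All ratios share the pool, which by itself gives arrays common structure, so these values are descriptions. The median SD of a contig among fish of a level was 0.27 in the control, 0.32 at 0.4 µg/L and 0.29 at 4 µg/L.

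The comparison of 4 µg/L with control asks what the highest exposure did, and with 3 equally ranked levels it is also the linear trend over rank. It called 3 of 992 contigs, which is 0.302%, with 2 higher and 1 lower at 4 µg/L. Without adjustment 13.7% of contigs had a p under 0.05, of which 72 were higher and 64 lower. Differences were small for most contigs: 87.1% lay within 0.5 of 0 on the log2 scale, the median absolute difference was 0.20, and 21 contigs differed by more than 1, with 11 higher, 10 lower and 2 of the 21 called. The median SE of a difference was 0.22.

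Contig_18171 had the largest called change of the dose series. Its log2 ratios were 0.42, 0.05, -0.40 and -0.13 in the control fish, -0.10, 0.24, -0.04, 0.68 and 0.62 in the fish at 0.4 µg/L, and 1.73, 0.84, 1.64 and 3.14 in the fish at 4 µg/L. All 4 fish at 4 µg/L lay above all other fish of the series, while control and 0.4 µg/L overlapped. It averaged 1.84 ± 0.96 at 4 µg/L (SD, n = 4) and -0.02 ± 0.34 in the control (SD, n = 4), a difference of 1.85 (SE 0.34, limma adjusted p = 0.0023). The 0.4 µg/L fish averaged 0.28 ± 0.36 (SD, n = 5) and differed from control by 0.29 (SE 0.32, adjusted p = 0.769). The contig is dim: its background-subtracted fish signal was 30.0, 4.17, -65.0 and -6.5 in the control fish, from 66.8 to 251.7 at 0.4 µg/L, and from 128.8 to 1215 at 4 µg/L. Only 2 of 4 control arrays were thus above background, so the control level, and with it the size of the difference, is poorly determined. Pool signals were low too, from 10.2 to 107.7 at 0.4 µg/L and from 23.3 to 89.5 at 4 µg/L. The fish signals of the cadmium levels overlapped. The ratios that part the cadmium levels are thus partly set by the background as well.

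Leaving out any single fish of the 13 kept this call, with differences between 1.42 and 2.18. It was lost when the spread was taken from the 13 fish alone (difference 1.85, adjusted p = 0.081), with scaling between arrays (1.27, adjusted p = 0.181) and with the authors' processed values (3.44, adjusted p = 0.377, and 2.86, adjusted p = 0.401, with 15 fish). Without background subtraction it passed with a smaller difference of 1.07 (adjusted p = 0.00554).

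Contig_11440 was a bright contig, above background in both channels on all 13 arrays, whose level means followed the dose. Its log2 ratios were -0.71, -0.58, -0.25 and -0.29 in the control fish, 0.17, 0.25, 0.24, 0.30 and 0.23 at 0.4 µg/L, and 0.70, 0.57, 0.36 and 0.33 at 4 µg/L. No fish of a level overlapped with a fish of the next level. At 4 µg/L it averaged 0.49 ± 0.18 (SD, n = 4), against -0.46 ± 0.22 in the control (SD, n = 4), a difference of 0.95 (SE 0.20, limma adjusted p = 0.0151). The 0.4 µg/L fish, at 0.23 ± 0.05 (SD, n = 5), were 0.69 above control (SE 0.19, adjusted p = 0.136) and 0.25 below 4 µg/L (SE 0.19, adjusted p = 0.66), and neither of these steps passed the test alone. The call against control was lost with median centring (0.56, adjusted p = 0.586), with the authors' processed values (0.82, adjusted p = 0.365), with scaling between arrays (0.79, adjusted p = 0.41), without control replicate 1 (0.86, adjusted p = 0.0766) and without replicate 2 at 4 µg/L (0.88, adjusted p = 0.0633).

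The contig called lower at 4 µg/L than in the control was contig_6901 (limma adjusted p = 0.0255). Its background-subtracted fish signal was -97.0, -116.8, -75.0 and 1.0 at 4 µg/L and -43.3, -14.7, -37.7 and -49.7 in the control. Fish signal was above background on 1 of 4 arrays at 4 µg/L and on none of the 4 control arrays, so no size of change is given. The call was lost without background subtraction, where the difference was -0.04 (adjusted p = 0.868), and on leaving out control replicate 1, 3 or 4, or replicate 2 or 3 at 4 µg/L (adjusted p from 0.0503 to 0.12). It was lost as well with median centring (adjusted p = 0.36), 13 fish only (0.302), scaling between arrays (0.459), the authors' processed values with 15 fish (0.274) and array weights (0.0765).

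**Figure D2:**
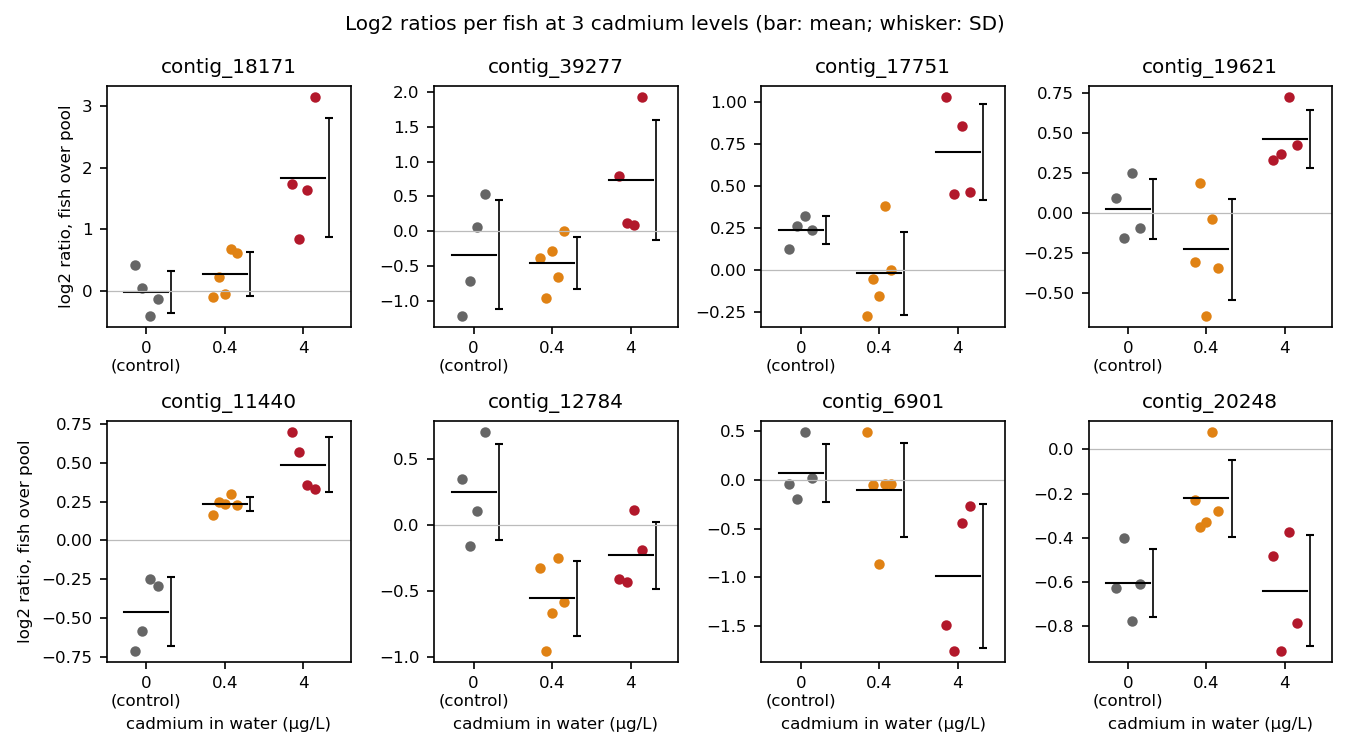
Log2 ratio of fish over pool per fish (points), with the mean (bar) and SD (whisker) of each level, against cadmium in the water for the 7 contigs called in any comparison of the 3 levels and for contig_20248. All fish at 4 µg/L lie above the fish at 0.4 µg/L for contig_18171, contig_39277, contig_17751 and contig_19621, the levels of contig_11440 do not overlap, and contig_20248 is highest at 0.4 µg/L.

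The comparison of 0.4 µg/L with control asks whether the lower exposure left a mark of its own. It called 1 of 992 contigs, which is 0.101%, lower at 0.4 µg/L, and 0 higher. At an unadjusted p under 0.05 there were 12.2% of contigs, of which 67 were higher and 54 lower. The median absolute difference was 0.19, and 8 contigs differed by more than 1, of which 0 were called.

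The called contig, contig_12784, was above background in both channels on all 13 arrays. Its log2 ratios were 0.35, -0.15, 0.11 and 0.71 in the control fish, -0.32, -0.95, -0.67, -0.25 and -0.58 at 0.4 µg/L, and -0.41, -0.43, 0.12 and -0.18 at 4 µg/L. All 5 fish at 0.4 µg/L lay below all 4 control fish, and the fish at 4 µg/L overlapped with both groups. The 0.4 µg/L fish averaged -0.55 ± 0.28 (SD, n = 5) and the control fish 0.25 ± 0.37 (SD, n = 4), a difference of -0.81 (SE 0.18, limma adjusted p = 0.0433). At 4 µg/L the mean was -0.23 ± 0.25 (SD, n = 4), which differed from control by -0.48 (SE 0.19, adjusted p = 0.226). The call was lost on leaving out control replicate 1, 3 or 4, replicate 2, 3 or 5 at 0.4 µg/L or replicate 5 at 4 µg/L, with the smallest difference, -0.65, without control replicate 4 (adjusted p = 0.279). Median centring, 13 fish only, scaling between arrays, array weights and the authors' processed values, with 13 or 15 fish, lost it as well.

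No contig passed as higher at 0.4 µg/L than in the control. The smallest p in that direction belonged to contig_26153, at 0.55, 0.30, 0.27, 0.43 and 0.71 at 0.4 µg/L, against -0.16, -0.03, -0.02 and -1.37 in the control. The ratios did not overlap, but the control fish signals were 56.2, 35.3, -8 and -67.7, so that 2 of 4 control arrays were above background and the far fish, replicate 4, was not. The fitted difference of 0.85 (SE 0.22, limma adjusted p = 0.135) was 0.52 without control replicate 4 and 0.23 without background subtraction, and its size is not determined.

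The comparison of 4 with 0.4 µg/L needs no control fish and joins arrays of overlapping fish signal. It called 4 of 992 contigs, which is 0.403%, and all 4 were higher at 4 µg/L. The direction depended on the fish included: without replicate 4 at 4 µg/L, 5 contigs were called higher and 6 lower, and without replicate 5 at 4 µg/L, 3 higher and 3 lower. At an unadjusted p under 0.05 there were 11.4% of contigs, of which 58 were higher and 55 lower at 4 µg/L. The median absolute difference was 0.18, and 10 contigs differed by more than 1, of which 2 were called. The 4 called contigs had both signals above background on 9 or 11 of the 13 arrays.

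Contig_18171 was 1.56 higher at 4 than at 0.4 µg/L (SE 0.32, limma adjusted p = 0.00877). Its pool signals were low at both levels, so this size is partly set by the background. Without replicate 5 at 4 µg/L, the highest fish, the difference was 1.12 (adjusted p = 0.0744). Contig_39277 had its highest value in the same fish. The log2 ratios were -1.21, -0.71, 0.06 and 0.53 in the control, -0.38, -0.95, -0.28, -0.66 and 0.00 at 0.4 µg/L, and 0.79, 0.12, 0.10 and 1.92 at 4 µg/L. All fish at 4 µg/L lay above all fish at 0.4 µg/L, while control fish spanned both. The difference between the cadmium levels was 1.19 (SE 0.28, adjusted p = 0.0303), and 0.79 without replicate 5 at 4 µg/L (adjusted p = 0.175). The call was also lost without replicate 2 or 4 at 0.4 µg/L (adjusted p = 0.0742 and 0.0564) and without replicate 2 at 4 µg/L (adjusted p = 0.0703). The fish signal of replicate 5 at 4 µg/L was 924.5, against 94 to 144.5 in the other 3 fish at 4 µg/L and 3.83 to 127.3 in the fish at 0.4 µg/L. In the control fish it was -37.7, 34.8, -4.67 and 40.3. Only 2 of 4 control arrays were thus above background, so the control level of contig_39277 is poorly determined. At 0.4 µg/L, replicates 2 and 4, with the lowest ratios of that level, had fish signals of 35.7 and 3.83. The difference of contig_39277 between the cadmium levels is thus partly set by the background.

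Contig_17751 had the smallest p of the comparison. Its log2 ratios were 0.12, 0.26, 0.32 and 0.24 in the control, -0.27, -0.05, -0.15, 0.38 and 0.00 at 0.4 µg/L, and 1.03, 0.45, 0.86 and 0.47 at 4 µg/L. All fish at 4 µg/L lay above all fish at 0.4 µg/L. The difference between the cadmium levels was 0.72 (SE 0.13, limma adjusted p = 0.00108). Both signals were above background on 9 of 13 arrays, and the control fish signals were 0.33, 12.7, -62.3 and -0.67, with pool signals under 10, so the control ratios are set by the background and are not set against the cadmium levels. Pool signals were low at 4 µg/L as well, at 31, -0.17, 4.33 and 58. In replicate 5 at 0.4 µg/L the fish signal was 6.33 and the pool signal -0.33. The size of the difference between the cadmium levels is thus partly set by the background too. Spots also varied within a fish, from -0.25 to 1.74 in replicate 2 at 4 µg/L.

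Contig_19621 lies outside the naming rule, which takes 2 contigs per direction, and is named after its values were seen because the count is small. It had log2 ratios of 0.10, -0.16, 0.25 and -0.09 in the control, -0.31, 0.19, -0.65, -0.04 and -0.34 at 0.4 µg/L, and 0.33, 0.37, 0.73 and 0.43 at 4 µg/L. All fish at 4 µg/L lay above the rest, and the other levels overlapped. It was 0.69 higher at 4 than at 0.4 µg/L (SE 0.16, limma adjusted p = 0.0226). Its fish signal was above background on all 9 cadmium arrays and on none of the 4 control arrays, so the control ratios are bounds set by the background. It was barely above background, at 1.33 and 4, in replicates 3 and 5 at 0.4 µg/L, which had the lowest ratios. The size of the difference between the cadmium levels is thus partly set by the background as well. Without replicate 3 or 5 at 0.4 µg/L, or without replicate 4 at 4 µg/L, 3 of the 4 calls remained. In each of these fits the lost call was that of contig_17751 or contig_19621. No contig passed as lower at 4 than at 0.4 µg/L. The smallest p in that direction was that of contig_6901 (adjusted p = 0.0623), again a contig near background, which passed without replicate 3 at 0.4 µg/L (adjusted p = 0.0115) and without replicate 4 or 5 at 4 µg/L (adjusted p = 0.014 and 0.00696).

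With the authors' processed values 3 contigs were called between the cadmium levels, all lower at 4 µg/L, and 0 of them were among the 4 above. Median centring called 3 and omitting background subtraction called 2, and in each of these settings 1 was among the 4 above.

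**Figure D3:**
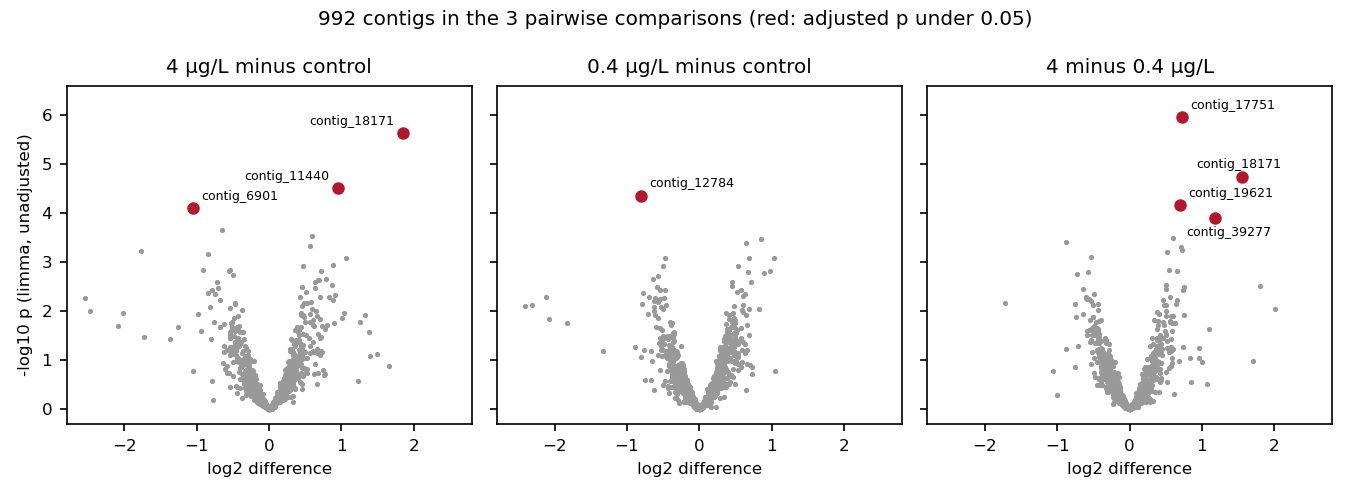
Log2 difference (x axis) against -log10 of the unadjusted limma p (y axis) for 992 contigs in the 3 pairwise comparisons; red points passed an adjusted p of 0.05 and carry their contig number. There are 3 red points for 4 µg/L minus control, 1 for 0.4 µg/L minus control and 4, all to the right of 0, for 4 minus 0.4 µg/L.

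The shape of the response over the 3 levels was tested in 3 further ways. An F-test of any difference among the levels called 7 contigs, which is 0.706%, and 14.9% had an unadjusted p under 0.05. These 7 were the contigs called in the pairwise comparisons, with adjusted p from 0.00274 to 0.0443. A slope over the concentration, in log2 units per µg/L, called 4 contigs, which is 0.403%, with 3 rising and 1 falling. With the authors' processed values it called 0 rising and 2 falling, 0 of them among these 4, and without background subtraction 1 rising and 2 falling. Contig_18171 rose by 0.45 per µg/L (SE 0.08, adjusted p = 0.000486), contig_39277 by 0.29 (SE 0.07, adjusted p = 0.0182) and contig_17751, whose control ratios are set by the background, by 0.15 (SE 0.03, adjusted p = 0.00537), and the falling contig was contig_6901 (adjusted p = 0.00789). Contig_18171 and contig_39277 were each above background on 2 of 4 control arrays. With each of the 13 fish left out in turn, the slope call of contig_39277 was lost 4 times and that of contig_6901 2 times. That of contig_17751 was lost without replicate 2 at 4 µg/L, where only the call of contig_18171 remained of the 4. Because 0.4 µg/L is close to 0 on this scale, the slope mostly sets 4 µg/L against the other levels.

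A bend, the 0.4 µg/L mean minus the mean of control and 4 µg/L, was tested for responses that reverse with dose. It called 1 contig, which is 0.101%, and 11.6% of contigs had an unadjusted p under 0.05, of which 55 bent upward and 60 downward. The call was contig_17751, with a fitted bend of -0.49 (SE 0.11, limma adjusted p = 0.0472). Since its control ratios are set by the background, this gives no dip below control. The means were 0.70 ± 0.29 at 4 µg/L (SD, n = 4) and -0.02 ± 0.25 at 0.4 µg/L (SD, n = 5), a difference also partly set by the background. The call was lost on leaving out any of 9 of the 13 fish in turn (control replicates 1, 3 and 4, replicates 1, 2, 3 and 5 at 0.4 µg/L, and replicates 2 and 4 at 4 µg/L; adjusted p from 0.0501 to 0.127), and without background subtraction (-0.15, adjusted p = 0.234), and the bend was 0.24 with the authors' processed values.

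No upward bend passed the test. Contig_30757 had the smallest p in that direction, with log2 ratios of -0.43, 0.02, -0.98 and -0.64 in the control, 0.27, -0.24, 0.28, -0.03 and 0.39 at 0.4 µg/L, and -0.57, -0.53, -0.30 and -0.33 at 4 µg/L. Control replicate 2 overlapped with the 0.4 µg/L fish, and all fish at 4 µg/L lay below them. The fitted bend was 0.61 (SE 0.14, limma adjusted p = 0.0572), and 0.08 without background subtraction. The control fish signals were -3.5, 21.8, -96.8 and -65.2, so only control replicate 2 was above background and the bend has no measured control level. It passed without replicate 2 or 4 at 0.4 µg/L (adjusted p = 0.0322 and 0.0269) and without replicate 5 at 4 µg/L (0.0459). It also passed without control replicate 2 (0.0104), which leaves no control fish above background.

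Among the fish themselves, few contigs separated the levels completely. A rise with no overlap between neighbouring levels was found in 2 contigs (0.202%) and a fall of that kind in 0 (0%). Besides contig_11440 the rise held for contig_18055, a bright contig with log2 ratios of -0.85, -0.13, -0.31 and -0.21 in the control, 0.22, -0.09, 0.07, 0.38 and -0.04 at 0.4 µg/L, and 0.70, 0.42, 0.38 and 0.49 at 4 µg/L. The neighbouring levels came within 0.05 of each other, and the cadmium levels nearly touched. The highest fish at 0.4 µg/L was at 0.3759 and the lowest at 4 µg/L at 0.377. The difference of 0.87 between 4 µg/L and control for contig_18055 did not pass (SE 0.28, limma adjusted p = 0.133).

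Fish at 0.4 µg/L lay above all control and 4 µg/L fish in 1 contig (0.101%) and below all of them in 0 (0%). That contig, contig_20248, had log2 ratios of -0.63, -0.40, -0.78 and -0.61 in the control, -0.23, -0.35, -0.33, 0.08 and -0.28 at 0.4 µg/L, and -0.48, -0.91, -0.38 and -0.79 at 4 µg/L. Replicate 4 at 0.4 µg/L stood above the other 4 fish, and the lowest of the 0.4 µg/L fish lay only just above the highest fish at 4 µg/L. The fish signal of that replicate 4 was 30.2, with a pool signal of 44.8, against fish signals of 217.2 to 287.5 in the other 4. Control fish signals were 43.8, 49, 8.67 and 2.67. The control ratios and the ratio of the far fish are thus partly set by the background. The bend of 0.40 did not pass the test (SE 0.14, limma adjusted p = 0.207).

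Both cadmium levels lay above all control fish in 14 contigs (1.41%) and below all of them in 2 (0.202%). The 4 µg/L fish lay above all other fish of the series in 9 contigs (0.907%) and below in 3 (0.302%). Taken pair by pair, all 4 µg/L fish were above all control fish in 46 contigs (4.64%) and below in 39 (3.93%). All 0.4 µg/L fish were above all control fish in 24 contigs (2.42%) and below in 14 (1.41%). All 4 µg/L fish were above all 0.4 µg/L fish in 17 contigs (1.71%) and below in 10 (1.01%). Groups of 4 fish part completely more easily than a group of 5 from a group of 4, so these shares are not comparable between pairs.

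Each of the 6 possible orders of the 3 means held between 14.7% and 18.2% of contigs. The means increased with dose in 18.2% and decreased in 18% of contigs. They peaked at 0.4 µg/L in 17.1% with 4 µg/L above control and in 16.4% with 4 µg/L below control. They dipped at 0.4 µg/L in 14.7% with 4 µg/L above control and in 15.4% with 4 µg/L below control. The balance moved with the processing. Under median centring the means increased with dose in 11.6% and decreased in 25% of contigs. With the authors' processed values they increased in 22.1% and decreased in 17.5% of the 914 contigs with a value at each level. These orders are of means and carry no test.

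**Figure D4:**
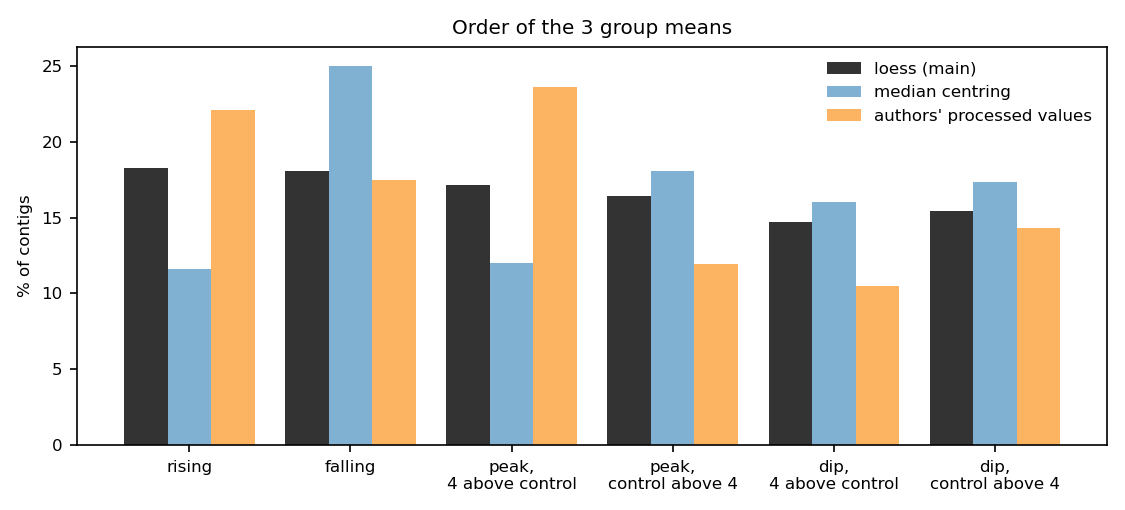
Percent of contigs (y axis) in each order of the 3 level means (x axis; peak and dip refer to 0.4 µg/L), after loess normalization, after median centring and with the authors' processed values (992, 992 and 914 contigs). The dark bars lie between 14.7% and 18.2%, while the share with rising means is 11.6% under median centring and 22.1% with the authors' values.

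To see whether cadmium fish stood apart from the rest of the laboratory arm, the mean of both cadmium groups was set against the mean of the other 7 treatments, without the control. This comparison, with 9 fish against 34, called 19.6% of the 992 contigs. In cadmium fish 10.2% of the 992 were higher and 9.38%, or 93 contigs, were lower, and 344 contigs, or 34.7%, had an unadjusted p under 0.05. Sizes were modest. The called contigs had a median difference of 0.45 where higher and -0.44 where lower, and 0 of the higher and 2 of the lower ones differed by more than 1.

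In these contigs both cadmium levels lay on the same side of the other treatments in the median, and control fish lay nearer to those treatments. In the higher contigs the median difference from the 7 treatments was 0.42 at 4 µg/L, 0.45 at 0.4 µg/L and 0.19 in the control fish, which did not enter the comparison. In the 93 lower contigs it was -0.50 at 4 µg/L, -0.38 at 0.4 µg/L and -0.18 in the control. All 9 cadmium fish lay on the called side of the mean of the 7 treatments in 46 of the higher contigs (45.5%) and in 23 of the lower ones (24.7%). The cadmium groups were the 2 most extreme of the 10 laboratory groups in 54 of the higher (53.5%) and 44 of the lower contigs (47.3%). The cadmium values are those that made the calls, so a group outside the comparison can lie nearer to the treatments for that reason alone. The counts of contigs are taken over contigs chosen by the same values, and no matching share was taken over all contigs of the array. They therefore cannot show whether cadmium fish stood apart more often than that choice alone gives. These differences and counts are descriptions.

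Array properties moved with this comparison as well. The SD of the log2 ratios over the contigs of an array had a median of 0.66 on the cadmium arrays (0.57 to 0.78) and 0.56 on the arrays of the 7 treatments (0.27 to 0.73). When arrays were scaled to a common spread, 22 contigs remained called, with 17 higher and 5 lower, and all 22 were among those called without scaling. Of the called contigs, 94.1% of the higher and 55.9% of the lower were above background in both channels on at least 10 of the 13 arrays of the dose series. With median centring 79 contigs were called, of which 70 were also called after loess.

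Contig_14486 was 0.84 higher in cadmium fish than in the 7 treatments (SE 0.16, limma adjusted p = 0.000398), a call that held under every alternative that gave it a value. Its log2 ratios were -1.04, -0.64, -0.81 and -1.17 in the control, 0.36, 0.45, -0.04, -0.18 and -0.26 at 0.4 µg/L, and 0.18, 0.21, -0.23 and -0.27 at 4 µg/L. All cadmium fish lay above all control fish. The difference from control was 0.89 at 4 µg/L (SE 0.31, adjusted p = 0.16) and 0.98 at 0.4 µg/L (SE 0.29, adjusted p = 0.145), so that neither level passed against the control alone. The group means of the 7 treatments ran from -1.21 at the higher PCB level to -0.54 at high salinity. The contig is among the brightest, and 4 of its 39 fish-channel spots, on 2 cadmium arrays, were at the ceiling of the intensity scale, so the values of those fish are lower bounds.

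Contig_26800 was 0.86 higher in cadmium fish than in the 7 treatments (SE 0.16, limma adjusted p = 0.000363), a call that also held under every alternative that gave it a value. Its log2 ratios were -0.03, 0.25, -0.25 and 0.14 in the control, 1.64, 0.93, 0.27, 2.17 and 0.31 at 0.4 µg/L, and 0.47, 0.90, 2.06 and 0.30 at 4 µg/L. All cadmium fish lay above all control fish, with a wide spread and no order between the cadmium levels. The high salinity fish came next, at 0.63 ± 0.66 (SD, n = 5), and the other groups averaged between -0.06 and 0.25. It is dim, with fish signal above background on all 9 cadmium arrays, on 0 of 5 restricted diet arrays, on 3 of 5 arrays of the lower PCB level and on 1 of 4 control arrays, so the size of the difference is partly set by the background. Without background subtraction it was 0.41 (adjusted p = 0.000107).

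On the lower side, contig_1269 differed by -0.91 between cadmium fish and the 7 treatments (SE 0.16, limma adjusted p = 0.000238). It averaged -1.31 ± 0.11 in the control (SD, n = 4), -1.20 ± 0.50 at 0.4 µg/L (SD, n = 5) and -1.59 ± 0.11 at 4 µg/L (SD, n = 4). The difference from control was -0.28 at 4 µg/L (SE 0.30, adjusted p = 0.744) and 0.11 at 0.4 µg/L (SE 0.28, adjusted p = 0.927). The means of the 7 treatments, from -1.03 on the restricted diet to -0.10 at low temperature, thus lay above the mean of the control as well. The call was lost with scaling between arrays (-0.54, adjusted p = 0.0614) and with the authors' processed values (-0.54, adjusted p = 0.233). Contig_8975 differed by -0.78 from the 7 treatments (SE 0.26, adjusted p = 0.0269). It averaged -0.12 ± 0.58 in the control (SD, n = 4), -0.92 ± 0.19 at 0.4 µg/L (SD, n = 5) and -0.57 ± 0.44 at 4 µg/L (SD, n = 4). The 7 treatments ran from -0.47 at high salinity and -0.41 at the lower PCB level to 0.66 with organochlorine pesticides, where 1 fish was at 3.29 and the median was 0.12. The call was lost without replicate 3 (adjusted p = 0.0599) or replicate 5 (adjusted p = 0.068) at 4 µg/L.

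Of the 7 contigs called among the 3 levels, 5 also passed against the 7 treatments, as did 19.6% of all 992 contigs. Both sets of calls use the same cadmium fish, so this count is a description. Contig_18171 was 0.90 higher in cadmium fish than in the 7 treatments (SE 0.18, limma adjusted p = 0.000647), with the 4 µg/L group highest of the 10 groups and the higher PCB group next at 0.72 ± 0.86 (SD, n = 4). Only the 4 µg/L mean, 1.84, was high, while the 0.4 µg/L mean, 0.28, lay close to that of low temperature, 0.24. The fish signal of contig_18171 was above background on 0 of 5 restricted diet arrays. Contig_11440 was 0.46 higher (SE 0.11, adjusted p = 0.00262), but the high salinity fish, at 0.41 ± 0.26 (SD, n = 5), lay between the cadmium levels, and the control fish were the lowest of the 10 groups. Contig_12784 differed by -0.29 (SE 0.10, adjusted p = 0.0354), but the high salinity mean, at -0.27, lay below that at 4 µg/L, -0.23, and the control was the highest of the 10 groups. Contig_17751 passed with a difference of 0.27 (SE 0.07, adjusted p = 0.00674), but only the 4 µg/L mean was high, at 0.70. The 0.4 µg/L mean, -0.02, ranked 3 from the lowest of the 10 groups, and the lower PCB level was at 0.26. Its fish signal was above background on 0 of 5 restricted diet arrays. Contig_6901, near background, passed as lower (adjusted p = 0.00204). Contig_39277, at 0.18 (SE 0.16, adjusted p = 0.437), and contig_19621, at 0.06 (SE 0.09, adjusted p = 0.649), did not pass the test against the 7 treatments.

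**Figure D5:**
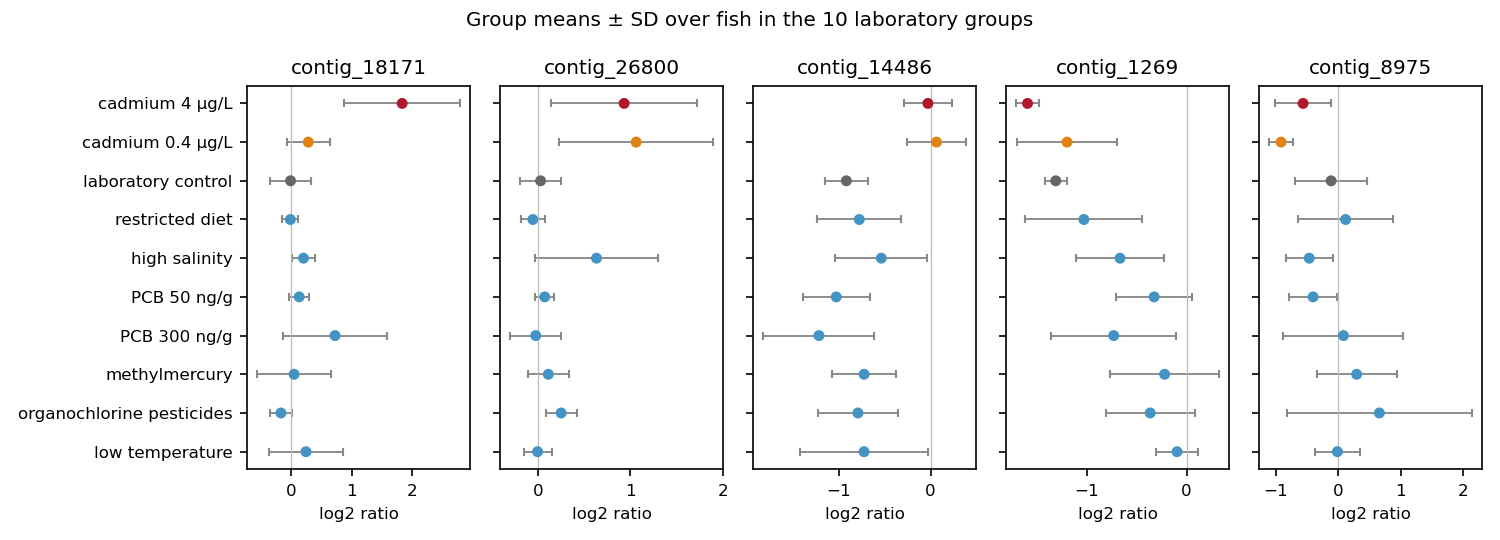
Mean log2 ratio (x axis; points) and SD over fish (whiskers) in the 10 laboratory groups (rows) for contig_18171 and for the 4 contigs named for the comparison of cadmium with the 7 other treatments. Cadmium groups are the top rows, and control is the row below them. Contig_18171 has its highest mean at 4 µg/L (1.84), and contig_26800 and contig_14486 have their highest means at both cadmium levels. For contig_1269 the control mean lies below the means of all 7 other treatments.

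Over all contigs, the mean profile at 4 µg/L correlated most with that at 0.4 µg/L (r = 0.849), then with the restricted diet (0.806), and least with low temperature (0.508). The 0.4 µg/L profile correlated at 0.849 with 4 µg/L, at 0.831 with the restricted diet and at 0.812 with the control. These are descriptions over 992 contigs, all measured against the same pool. The 4 µg/L group had the lowest mean of the 10 groups in 17.8% of contigs, more than any other group, and the highest in 12.1%. The 0.4 µg/L group had the lowest mean in 11% and the highest in 11.9%, and the control had the lowest in 11.3% and the highest in 7.06%. Groups of 4 fish reach extremes more easily than groups of 5, and low temperature, with 14.9% lowest and 16.5% highest means, has a fish whose ratios correlated at a median of -0.525 with the rest of its group.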

How the data were processed

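Two-colour array data of 49 laboratory fish were read, and 47 entered the fits. The authors deposited spot intensity values, foreground and background for the fish (Cy3) and the pool (Cy5), not normalized, per the file headers. The authors also deposited processed log2 ratios per contig, centred on a median of 0 per array. Scanner and image settings were not given in the sources used here.

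Background correction used normexp with an offset of 50. Loess then normalized each array by itself, and the 3 spots of a contig were averaged. Group means were fitted with limma 3.58.1 (lmFit, eBayes) in R 4.3.3 for 10 laboratory groups, with Benjamini-Hochberg adjustment within each of 7 comparisons and a threshold of 0.05. The number of arrays limits the precision. A contig counted as above background where its mean background-subtracted signal exceeded 0. SE and adjusted p are limma's, and SD is over fish. The fit was checked on simulated log ratios.

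At most 2 contigs higher and 2 lower were named per comparison, largest first, among those past the threshold where all fish of the cadmium group lay on the called side of the comparison mean. Where none passed, the contig with the smallest p was named as not passing. Contigs for patterns were named where fish of the levels did not overlap. The levels, comparisons and rules were chosen with earlier results of these data known. Lists of marker genes were not run, since contigs carry no gene names. Alternatives were the authors' processed values with 13 or 15 fish, centring on the median, spots without background subtraction, leaving out the dimmest contigs (mean signal under the 0.25 quantile), fitting 13 fish only, scaling between arrays, pool brightness as a covariate and leaving out each fish. Chosen after seeing the data were leaving out low temperature replicate 4, keeping contigs above background on at least 10 of 13 arrays, and array weights.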

Additional observations from a re-analysis of the deposited data

Results flagged for a closer look

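In 60 groups of values (log2 ratios of named contigs, and array measures, per level) the gap between the farthest fish and its neighbour was set against the range, and 5 fish stood apart, where chance alone gives about 1 in 20 groups. Control replicate 4 was low for contig_26153 at -1.37, and replicate 4 at 0.4 µg/L was high for contig_20248 at 0.0788. On the arrays, replicate 5 at 0.4 µg/L had the lowest number of contigs with pool signal above background in its level, 862, and replicate 5 at 4 µg/L the highest, 991. Replicate 4 at 4 µg/L had the widest spread of log2 ratios over contigs in its level, an SD of 0.77. Control replicate 4, at 0.96, was wider still, but the gap to its neighbour was not beyond the limit used.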

How the results depend on the processing

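All counts are of contigs called by limma at an adjusted p of 0.05. For 4 µg/L minus control there were 1 with median centring, 13 with the authors' processed values, 6 with these values and 15 fish, 1 with 13 fish only, 0 with scaling between arrays and 5 with pool brightness as a covariate. Of the 13 and the 6 with the authors' values, 1 and 0 were called in the main setting. For 0.4 µg/L minus control there were 0 with median centring, 5 without background subtraction, 23 with the authors' values (0 of them called in the main setting), 5 with these and 15 fish, 0 with 13 fish only, 0 with scaling, 2 with pool brightness and 0 with array weights. For 4 minus 0.4 µg/L there were 2 without background subtraction, 1 with the authors' values and 15 fish, 2 without the dimmest contigs, 0 with 13 fish only, 0 with scaling, 7 with pool brightness, 2 among contigs above background on 10 arrays and 2 with array weights. Median centring gave 3, of which 1 was called in the main setting, as was 1 of the 2 without background subtraction. The bend had 2 without background subtraction, 4 with the authors' values, 4 with pool brightness, and 0 with each of median centring, the authors' values with 15 fish, no dimmest contigs, 13 fish only, scaling, low temperature replicate 4 left out, contigs above background on 10 arrays, and array weights. Any difference had 1 with median centring, 24 with the authors' values, 4 without the dimmest contigs, 0 with 13 fish only, 0 with scaling, 4 among contigs above background on 10 arrays and 4 with array weights. Of the 24 with the authors' values, 0 were called in the main setting. The slope had 1 with median centring, 2 with the authors' values and 2 with these and 15 fish (all falling), 2 without the dimmest contigs, 0 with 13 fish only, 0 with scaling, 7 with pool brightness, 8 without low temperature replicate 4 and 2 among contigs above background on 10 arrays. Where scaling gave 0, between 50 and 76 contigs had an unadjusted p under 0.05, and where 13 fish gave 0, between 81 and 97.

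Cadmium minus the 7 treatments had 79 with median centring, 304 without background subtraction, 61 with the authors' values (48 higher, 13 lower), 32 with these and 15 fish (28 higher, 4 lower) and 22 with scaling. Means increased with dose in 11.6% of contigs with median centring, against 18.2% after loess. The bend of contig_17751 turned to 0.24 with the authors' values. The cause of these changes was not tested, except that fewer contigs or fewer fish entered by construction.

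Leaving out each fish in turn gave 2 to 8 contigs for 4 µg/L minus control (8 without replicate 3 at 4 µg/L), 0 to 2 for 0.4 µg/L minus control, 4 to 11 for 4 minus 0.4 µg/L (11 without replicate 4 at 4 µg/L), 0 to 6 for the bend, 1 to 13 for any difference (1 without replicate 2 at 4 µg/L), 3 to 11 for the slope and 14.4% to 20.8% of contigs for cadmium minus the 7 treatments. Without replicate 4 at 0.4 µg/L, whose array was also deposited under 4 µg/L, the counts were 7 for 4 µg/L minus control, 6 for 4 minus 0.4 µg/L, 6 for the bend, 13 for any difference and 7 for the slope.

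The authors' processed values give no value where a signal is at or below background and keep a ratio where both are, so 914 to 950 contigs were tested with them among the 3 levels with 13 fish, and 974 to 981 with 15 fish. Slide as a block could not be fitted, since each slide holds 1 array. No paired analysis was possible because the labels tie the replicate numbers to no shared animal, day or tank.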
